A study of Homo sapiens with 12 samples.

Results

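The genes described here are 9 targets on the surface of multiple myeloma cells: TNFRSF17 (BCMA), TNFRSF13B (TACI), SLAMF7, CD38, GPRC5D, FCRL5, SDC1 (CD138), CD46 and CD48. They were chosen by gene symbol, as antigens that antibodies, engineered T cells or drug conjugates against myeloma are directed at. All 9 were listed among the 59276 features of the deposited table, and 7 of them were among the 11939 features with enough signal to be tested. Total RNA was sequenced from MM1S cells, an established human multiple myeloma line, in 12 libraries of 3 per group. Besides the cells labelled day 0, cells were harvested at day 2, day 3 or day 5 of culture with NGI-1 at 10 μM, which inhibits the oligosaccharyltransferase (OST) complex. The day 0 libraries are also labelled with NGI-1 as treatment, while the text of the study treats them as untreated control cells, and whether these cells received the solvent is not settled. The labels do not say whether the 3 libraries of a group came from separate cultures, so the p-values below measure only the spread between these libraries.

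The OST complex joins N-glycans to proteins as they enter the endoplasmic reticulum, and most of the surface proteins in this group carry N-glycans when they reach the membrane. BCMA and TACI are receptors of the TNF receptor superfamily that bind the ligands APRIL and BAFF, and BCMA is known to sustain the survival of long-lived plasma cells. SLAMF7 and CD48 are relatives of one immunoglobulin-like family, CD38 is an ectoenzyme that consumes NAD, GPRC5D is an orphan G protein-coupled receptor, FCRL5 is an Fc receptor-like protein, SDC1 is a heparan sulfate proteoglycan and CD46 is a regulator of complement. All values here are of RNA and none is of protein or of surface level.

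The deposited values are log2(TPM + 1), where TPM is a length-corrected share of all transcripts in a library, so levels of different genes can be set side by side. A share of the total can also move because other transcripts move. The 88 features with ribosomal protein symbols took 28.5% to 29.6% of TPM in the day 0 libraries and 47.8% to 49.4% in those of day 5. Against day 0, the tested features had a median log2 fold change of -0.18 on day 2, -0.73 on day 3 and -0.99 on day 5. The main results are therefore also given after rescaling, in which the values of a library were divided by a constant so that its median log2 deviation from the mean of the libraries was 0, over 5433 features whose mean TPM was 10 or more. A gene was called higher or lower where it changed by more than 0.5 on the log2 scale with a Benjamini-Hochberg adjusted p from limma under 0.05. Log2 fold changes are differences between group means of log2(TPM + 1). For genes of few TPM they are smaller in size than the log2 ratio of the TPM means. In such bulk RNA, fewer cells that express a gene and less of its RNA per cell cannot be told apart.

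At day 0 the most abundant of these transcripts was CD48, with a mean of 806 TPM, followed by TNFRSF17 with 577 and SDC1 with 496 TPM. GPRC5D had a mean of 216 TPM, SLAMF7 156, CD46 62.1 and CD38 45.9 TPM. None of these neighbours in the order overlapped in their day 0 libraries. TNFRSF17 ranked 217 of all listed features by mean TPM at day 0, 129 at day 2, 89 at day 3 and 85 at day 5. By day 5 the order was TNFRSF17, CD48, SLAMF7, SDC1, GPRC5D, CD46 and CD38, again with no overlap between neighbours. At day 2 TNFRSF17 overlapped with CD48, and SLAMF7 with SDC1.

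The promoters of CD48, CD38, GPRC5D and SDC1 are shown so that these genes can be compared at their starts. On the deposited scale CD48 was called higher at days 2 and 3, and the other genes shown were lower at day 5. CD38 was also higher at day 2, and after rescaling only SDC1 of these genes was lower at day 5. RefSeq promoters (GRCh38.p14, 250 bases before to 50 after the start) were matched by symbol for 7 of the 9 genes, and none was matched for TNFRSF17 and SLAMF7. Capitals mark the letters CCACG, the second block of the endoplasmic reticulum stress element, or CTTCCGG, an ETS site on the minus strand. The windows are chr1:160711773-160712072 for CD48, chr4:15778078-15778377 for CD38, chr12:12952121-12952420 for GPRC5D and chr2:20225426-20225725 for SDC1, printed 5′ to 3′ on the gene's strand, which is plus for CD38 and minus for the others.
CD48: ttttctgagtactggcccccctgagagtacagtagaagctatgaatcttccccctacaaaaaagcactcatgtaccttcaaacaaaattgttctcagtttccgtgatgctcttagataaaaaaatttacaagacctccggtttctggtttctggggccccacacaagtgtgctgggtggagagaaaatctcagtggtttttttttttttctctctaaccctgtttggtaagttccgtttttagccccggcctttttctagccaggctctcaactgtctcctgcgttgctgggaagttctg
CD38: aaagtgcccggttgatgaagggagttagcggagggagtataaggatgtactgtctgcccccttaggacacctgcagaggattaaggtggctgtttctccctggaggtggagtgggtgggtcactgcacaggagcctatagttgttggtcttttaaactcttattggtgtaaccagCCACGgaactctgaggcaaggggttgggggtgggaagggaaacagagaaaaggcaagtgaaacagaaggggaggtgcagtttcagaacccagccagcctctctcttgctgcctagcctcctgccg
GPRC5D: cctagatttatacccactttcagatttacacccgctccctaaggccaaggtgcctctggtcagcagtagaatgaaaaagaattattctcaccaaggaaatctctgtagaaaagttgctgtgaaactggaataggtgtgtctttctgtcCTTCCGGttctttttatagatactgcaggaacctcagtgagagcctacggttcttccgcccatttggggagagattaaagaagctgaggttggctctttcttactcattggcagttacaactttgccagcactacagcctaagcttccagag
SDC1: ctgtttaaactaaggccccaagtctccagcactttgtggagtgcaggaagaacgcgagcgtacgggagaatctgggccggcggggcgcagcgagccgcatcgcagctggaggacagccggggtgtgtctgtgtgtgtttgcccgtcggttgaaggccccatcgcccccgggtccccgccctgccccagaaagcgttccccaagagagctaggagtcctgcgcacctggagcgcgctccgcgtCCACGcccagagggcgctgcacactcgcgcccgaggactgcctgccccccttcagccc

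The 6 motifs were searched on both strands, and a stretch CCACGTG would count for 2 of them. CCACG was found in 37.9% of the 27305 promoters in the table and in 3 of the 7 matched here, namely CD38, where it begins 75 bases before the start, SDC1, where it begins 8 bases before it, and CD46. The ETS letters CCGGAAG were found in 10.7% of all promoters, and here in GPRC5D, 102 bases before the start, and in CD46. The interferon-stimulated response element (GAAA, any 2 bases, GAAA), in 3.65% of promoters, the E-box CACGTG, in 7.43%, an NF-κB site (GGG, any 2 bases, TTTCC), in 1.92%, and the octamer ATGCAAAT, in 1.8%, were in none of the 7 windows. GC content of the printed windows ran from 44.7% in CD48 to 67.7% in SDC1. A match describes letters in the window and not a bound site, and the absence of one says only that these letters are not in it.

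Of the 7 tested genes, 4 were called higher and 1 lower on day 2. On day 3 there were 3 higher and 2 lower, and on day 5 1 higher and 3 lower. Over all tested features, 8.03% were higher and 23.2% lower on day 2. On day 3 these shares were 7.59% higher and 61.5% lower, and on day 5 7.73% higher and 69.8% lower. After rescaling the counts were 4 higher and 0 lower on day 2, then 5 higher and 1 lower on day 3, then 4 higher and 1 lower on day 5. On day 2 SDC1 (-0.36), CD46 (0.45) and GPRC5D (0.45) had a rescaled p under 0.05 from limma, before and after adjustment, without reaching the required size. The shares of all features were 12.9% higher and 11.4% lower on day 2, then 23.9% higher and 24.2% lower on day 3, then 27.5% higher and 26.9% lower on day 5. The median log2 fold change of the 7 genes was 0.69, 0.02 and -0.42 on the 3 days on the deposited scale, and 0.92, 0.87 and 0.78 after rescaling.

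**Figure D1:**
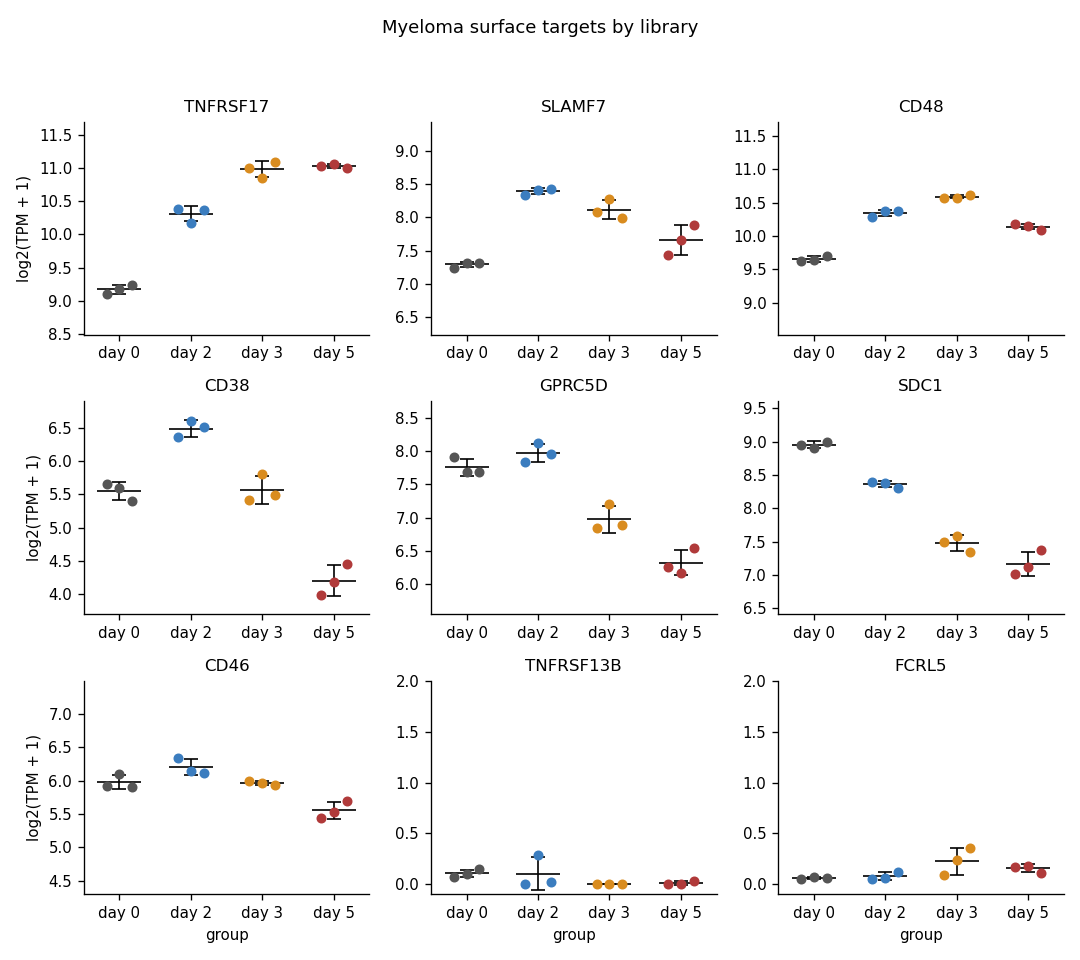
Level of each of the 9 genes in log2(TPM + 1) by group, with 1 point per library, a bar at the group mean and whiskers of 1 SD (n = 3); the upper 7 panels all span 3.2 log2 units and the panels of TNFRSF13B and FCRL5 start near 0. TNFRSF17 climbed from a mean of 9.17 at day 0 to 11.03 at day 5, SDC1 went down from 8.96 to 7.17, and CD38 peaked at 6.49 on day 2.

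Within groups, the same libraries tended to stand at the edge for several of these genes. Library H8 had the lowest TNFRSF17 and the highest SLAMF7, CD38, GPRC5D and SDC1 of day 3, and its share of ribosomal protein transcripts was 40.5% against 43.3% and 44.6% in the other day 3 libraries. Library H12 had the highest SLAMF7, CD38, GPRC5D, SDC1 and CD46 of day 5, with a ribosomal protein share of 47.8% against 49.1% and 49.4%. The part of library composition in these within-group differences was not tested. Without H8 or without H12, every call of the 7 genes against day 0 stayed as it was except that of CD48 at day 5.

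TNFRSF17, which encodes BCMA, lies at chr16:11965107-11968068 on the plus strand of GRCh38. Its level was 549, 577 and 606 TPM in the day 0 libraries and 1328, 1158 and 1320 TPM at day 2. At day 3 it reached 2049, 1846 and 2172 TPM, and at day 5 2083, 2129 and 2050 TPM. Every treated library was above every day 0 library, and day 2 lay wholly below days 3 and 5, which overlapped each other. The log2 fold change against day 0 was 1.13 at day 2 (limma, standard error 0.0743, Benjamini-Hochberg adjusted p = 1.02e-07), 1.81 at day 3 (adjusted p = 1.32e-10) and 1.85 at day 5 (adjusted p = 5.91e-11). In linear TPM the means were 2.20, 3.50 and 3.62 times that of day 0. Among all tested features, these changes stood at percentiles 98.3, 99.4 and 99.2.

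From day 2 to day 3 TNFRSF17 rose by a further 0.67 (adjusted p = 9.23e-06 from limma). It was the only 1 of the 7 genes called higher in that step, in which 3 were lower, against 3.22% of all features higher and 55.5% lower. From day 3 to day 5 the difference was 0.05, with a 95% interval of -0.11 to 0.21. After rescaling the increases over day 0 were 1.37, 2.67 and 3.08, all called, and the steps were 1.31, called, and 0.41, not called. NPIPB2, a gene of a multicopy family that overlaps TNFRSF17 on the opposite strand, had a mean of 7.25 TPM at day 0 and 5.94 TPM at day 5. Whether the quantification used strand is not given in the sources used here.

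The genes of BCMA's ligands were near 0, and the gamma-secretase and TRAF genes that passed the test at day 5 were lower on the deposited scale. The ligands TNFSF13 (APRIL) and TNFSF13B (BAFF) and the BAFF receptor TNFRSF13C stayed under 1 TPM in every library, with a highest value of 0.69 TPM, so that none of the 3 was tested. TNFRSF13B, which encodes TACI and lies at chr17:16929816-16972118 on the minus strand, was listed at 0 in 6 of the 12 libraries and reached at most 0.222 TPM, in a day 2 library. The gamma-secretase complex, which cuts BCMA from the cell surface, had all 6 of its subunit genes tested. On the deposited scale 1 was higher at day 2 (APH1B, 0.58), 2 were lower at day 3 and 3 were lower at day 5, below the shares of all features that were lower (61.5% and 69.8%). The median of the 6 genes at day 5 was -0.55 against -0.99 over all tested features. After rescaling 4 of the 6 genes were higher at day 5, against 27.5% of all features. Of the 5 TRAF genes, whose products are adaptors of TNF receptors, 3 were tested. All 3 were lower at day 5, where 69.8% of all features were lower. After rescaling 2 of the 3 were lower, against 26.9% of all features. TRAF2 fell the most, by 2.00, and was also lower after rescaling, at -1.05.

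SLAMF7 and CD48 rose at days 2 and 3, and from day 3 to day 5 their differences were -0.46 and -0.45, under the size required for a call, and -0.10 and -0.09 after rescaling. SLAMF7, the target of elotuzumab, lies at chr1:160739057-160754821 on the plus strand. It was measured at 151, 158 and 158 TPM at day 0 and at 324, 338 and 344 TPM at day 2. The later libraries held 271, 309 and 253 TPM at day 3 and 172, 202 and 234 TPM at day 5. All 9 treated libraries exceeded all 3 day 0 libraries, and the highest level was at day 2. Its log2 fold change was 1.10 at day 2 (limma, adjusted p = 2.06e-06) and 0.83 at day 3 (adjusted p = 5.98e-06), both called. At day 5 it was 0.37 (adjusted p = 0.00439), under the size that was required, while after rescaling SLAMF7 was higher on all 3 days, by 1.33, 1.69 and 1.59.

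CD48, a GPI-anchored ligand of the receptors CD2 and CD244, lies at chr1:160678746-160711851 on the minus strand. It was at 787, 799 and 832 TPM at day 0. Day 2 gave 1252, 1325 and 1332 TPM, and day 3 gave 1526, 1525 and 1564 TPM. At day 5 it was at 1154, 1134 and 1093 TPM. The 4 groups did not overlap, with day 3 on top and day 5 still above day 0. CD48 rose by 0.69 at day 2 (limma, adjusted p = 4.38e-07) and by 0.93 at day 3 (adjusted p = 4.97e-09). At day 5 the difference was 0.48 (adjusted p = 1.49e-06), just under the required size, and it became a call without library H3 of day 0 (0.506) or without library H12 of day 5 (0.505). After rescaling CD48 was higher on all 3 days, by 0.92, 1.80 and 1.71.

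These 2 genes stand 27206 bases apart in the SLAM gene cluster of chromosome 1, on opposite strands. LY9 (SLAMF3), another gene of the family, begins 41253 bases beyond SLAMF7. LY9 was measured at a mean of 31.2 TPM at day 0, 74.9 at day 2, 57.6 at day 3 and 41.4 TPM at day 5. It rose by 1.24 at day 2 and by 0.86 at day 3, and was at 0.39 and not called at day 5, and after rescaling it was higher on all 3 days, by 1.46, 1.70 and 1.58. The other family genes in the cluster, SLAMF1, CD84, CD244 and SLAMF6, all stayed at or under 0.2215 TPM. Of the 11 SLAM family, adaptor and ligand genes besides the surface targets, 2 were tested, and the second, CD58, was called on no day on the deposited scale and was higher at days 3 and 5 after rescaling, by 1.04 and 1.62. The adaptors SH2D1A and SH2D1B, through which SLAM receptors signal in T and NK cells, were under 1 TPM in every library.

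CD38 went up and then down. It lies at chr4:15778275-15853230 on the plus strand, and antibodies such as daratumumab bind its product. It was at 49.3, 47.3 and 41.2 TPM at day 0 and at 81.0, 96.2 and 89.9 TPM at day 2. It returned to 41.6, 55.0 and 43.95 TPM at day 3 and dropped to 14.9, 17.1 and 20.8 TPM at day 5. Day 2 lay above and day 5 below all other groups, and days 0 and 3 overlapped. The log2 fold change was 0.94 at day 2 (limma, adjusted p = 8.83e-05), 0.02 at day 3 (95% interval -0.27 to 0.31) and -1.34 at day 5 (adjusted p = 4.39e-07).

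Both later steps of CD38 were called lower, with -0.92 from day 2 to day 3 and -1.36 from day 3 to day 5. The second of these stood at percentile 0.126 of all tested features, of which 13.1% were lower and 0.67% higher in that step. After rescaling the fall below day 0 was no longer called, with -0.16 at day 5 and a 95% interval of -0.36 to 0.04. The step from day 2 to day 3 also lost its call, at -0.29, while that from day 3 to day 5 was called, at -1.03, and CD38 was then higher than day 0 at day 3 as well, by 0.87. Of the 8 genes listed for NAD metabolism and ectonucleotidases, 6 were tested, and 3 were lower at day 5, where 69.8% of all features were lower. The largest fall was in the NAD kinase gene NADK, by 1.37, which was -0.20 and not called after rescaling, and the CD38 paralog BST1 was at or near 0 throughout. After rescaling 3 were higher and 1 lower at day 5, against 27.5% and 26.9% of all features. NT5E, among the higher, was under 1 TPM in every day 0 library and passed the filter only through treated libraries. ENPP1, the lower gene, was under 1 TPM in every treated library and passed only through day 0. It was also among the genes lower on the deposited scale. The calls of NT5E and ENPP1 thus rest on low values.

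GPRC5D, the receptor bound by talquetamab, lies at chr12:12940775-12952147 on the minus strand. It was at 239, 205 and 204 TPM at day 0 and at 228, 278 and 246 TPM at day 2. It dropped to 114, 147 and 117 TPM at day 3 and to 75.7, 71.2 and 92.2 TPM at day 5. Days 0 and 2 overlapped, and day 3 and then day 5 lay below them. At day 2 the difference was 0.22, with a 95% interval of -0.05 to 0.48. It fell by 0.78 at day 3 (limma, adjusted p = 5.01e-05) and by 1.43 at day 5 (adjusted p = 8.99e-08), and the steps from day 2 to day 3 and from day 3 to day 5 were also called lower. After rescaling neither fall against day 0 was called, with 0.08 at day 3 and -0.21 at day 5, and these stood at percentiles 56.5 and 40.3 of all features. Neither step was called after rescaling either, with -0.36 from day 2 to day 3 and -0.30 from day 3 to day 5. The 3 GPRC5 relatives in the list, GPRC5A, GPRC5B and GPRC5C, did not pass the filter, the highest value being 1.48 TPM for GPRC5C. The antisense gene GPRC5D-AS1 had at most 0.445 TPM in any library.

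SDC1, the defining surface marker of plasma cells, fell on every day. It lies at chr2:20200797-20225433 on the minus strand. It was at 496, 478 and 512 TPM at day 0 and at 336, 334 and 316 TPM at day 2. It was at 180, 191 and 162 TPM at day 3 and at 128, 139 and 165 TPM at day 5. Days 3 and 5 overlapped, and all other groups were apart. The log2 fold change was -0.59 at day 2 (limma, adjusted p = 0.000185), -1.48 at day 3 (adjusted p = 9.17e-09) and -1.79 at day 5 (adjusted p = 6.78e-10). SDC1 was the only 1 of the 7 genes called lower than day 0 after rescaling, at -0.61 on day 3 and -0.57 on day 5, while its rescaled difference at day 2 was -0.36 and not called. On the deposited scale it stood at percentiles 18.5, 15.4 and 17.5, within the range where many features lie.

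The genes that build, trim or shed heparan sulfate proteoglycans were mostly not called at day 2 and lower at days 3 and 5 on the deposited scale, as were most features. Of 16 listed, 13 were tested, and 1 was lower at day 2, 12 at day 3 and 13 at day 5, against 23.2%, 61.5% and 69.8% of all features, with a median of -1.23 at day 5 against -0.99 over all tested features. The heparanase gene HPSE fell the most, by 2.60 in log2(TPM + 1) at day 5, from a mean of 6.55 TPM to 0.249 TPM. The sheddase genes ADAM10 and ADAM17 fell by 1.29 and 1.23 at day 5. After rescaling these were at -0.08 and -0.18 and not called, while HPSE was still lower at -1.95. It was 1 of 3 genes lower on that day among the 13 tested, against 26.9% of all features. Of the other syndecans, SDC2 and SDC4 were under the filter, and SDC3 had a mean of 1.31 TPM at day 0.

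CD46, a membrane cofactor that inactivates complement, lies at chr1:207752057-207795513 on the plus strand and was not called against day 0 on the deposited scale. It was at 59.8, 67.6 and 58.8 TPM at day 0 and at 80.2, 70.1 and 68.4 TPM at day 2. It was at 62.8, 61.3 and 60.3 TPM at day 3 and at 42.7, 45.1 and 50.6 TPM at day 5. The day 5 libraries lay below all others, and days 0 and 3 overlapped. The differences from day 0 were 0.23 at day 2, -0.01 at day 3 (95% interval -0.21 to 0.19) and -0.42 at day 5 (limma, adjusted p = 0.000833, under the size required for a call). The direction depended on the scale: after rescaling CD46 was called higher at day 3, by 0.84, and at day 5, by 0.78. Of the 6 other complement genes, CD55 and CD59 were tested, and CD55 fell by 1.41 at day 5 while CD59 was at -0.44 and not called. After rescaling CD55 was at -0.26 and CD59 was higher by 0.78.

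FCRL5, the target of cevostamab, lies at chr1:157513377-157552520 on the minus strand and was close to 0. Its highest level was 0.278 TPM, in a day 3 library, and the day 0 libraries held 0.0358, 0.0463 and 0.0444 TPM. The FCRL relatives FCRL1, FCRL2, FCRL3, FCRL4, FCRLA and FCRLB were all under 1 TPM as well. TPM values keep no read counts, so no detection limit can be given for FCRL5 or TNFRSF13B.

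**Figure D2:**
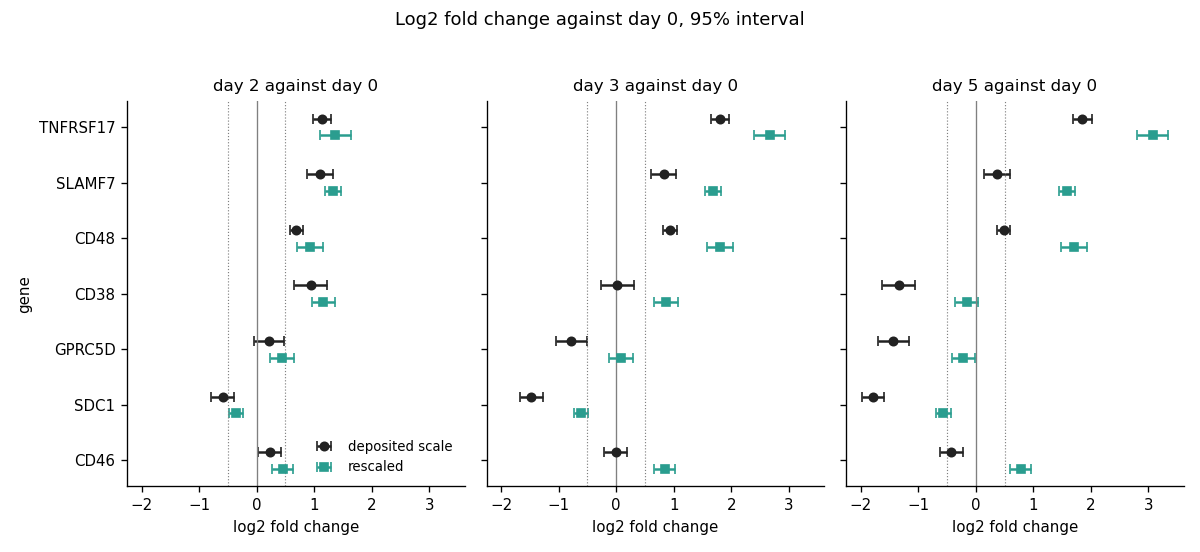
Log2 fold change of the 7 tested genes against day 0 with its 95% interval from limma, on the deposited scale (black circles) and after rescaling (green squares); dotted lines mark 0.5 on either side of 0. TNFRSF17 lies to the right of 0.5 in all 3 panels under both scalings, SDC1 lies left of 0 in all of them, and at day 5 CD46 is at -0.42 on the deposited scale and at 0.78 after rescaling.

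The direct comparison between these genes does not need a scale for the library, since a ratio of 2 transcripts within a library cancels it but for the pseudocount. The log2 ratio of TNFRSF17 to SDC1 was 0.14 to 0.27 in the day 0 libraries, 1.79 to 2.06 at day 2, 3.26 to 3.73 at day 3 and 3.63 to 4.02 at day 5. Averaged over the 9 treated libraries it was 2.88 higher than at day 0. The ratio to GPRC5D was 2.26 higher, the ratio to CD46 1.67 higher and the ratio to CD48 0.90 higher. Exact two-sided permutation tests over the 220 choices of 3 libraries gave p = 0.00455 for SDC1, GPRC5D and CD46, the smallest p this design allows, and p = 0.00909 for CD48. After Benjamini-Hochberg adjustment over the 6 ratios these exact permutation p-values became 0.00909 and 0.0136. All 9 treated libraries were above all day 0 libraries in these 4 ratios. The change of TNFRSF17 against day 0 stood at percentiles 98.3, 99.4 and 99.2 of all tested features on days 2, 3 and 5. Its mean ratio to most features therefore rose as well, and such a rise is not particular to these genes. The share of all features that would reach these p-values was not computed.

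The ratios of TNFRSF17 to SLAMF7 and to CD38 took a different course. At day 2 the ratio to SLAMF7 was 1.91 ± 0.13 (SD, n = 3) against 1.88 ± 0.04 at day 0, and the ratio to CD38 was 3.82 ± 0.22 against 3.63 ± 0.20. By day 5 they had reached 3.37 ± 0.23 and 6.82 ± 0.24. Over all treated libraries the ratios were 0.83 and 1.72 higher than at day 0, in 8 of 9 libraries above every day 0 library, with exact permutation p = 0.0773 and 0.05, or 0.0773 and 0.06 after adjustment. Without library H5 or without library H6 of day 2, all 6 ratios had an adjusted exact permutation p under 0.05. The test pooled the treated days. With all libraries kept, the ratios to SLAMF7 and CD38 at day 2 overlapped with day 0, so these p-values show no difference at day 2. TNFRSF17 made up 24.5% ± 0.81 of the summed TPM of the 9 genes in the day 0 libraries (SD, n = 3). This share was 34.8% ± 2.31 on day 2, then 47.5% ± 2.59, then 56.4% ± 0.89 on day 5 (SD, n = 3 each). The sum itself was 2359 TPM at day 0 and 3704 TPM at day 5.

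**Figure D3:**
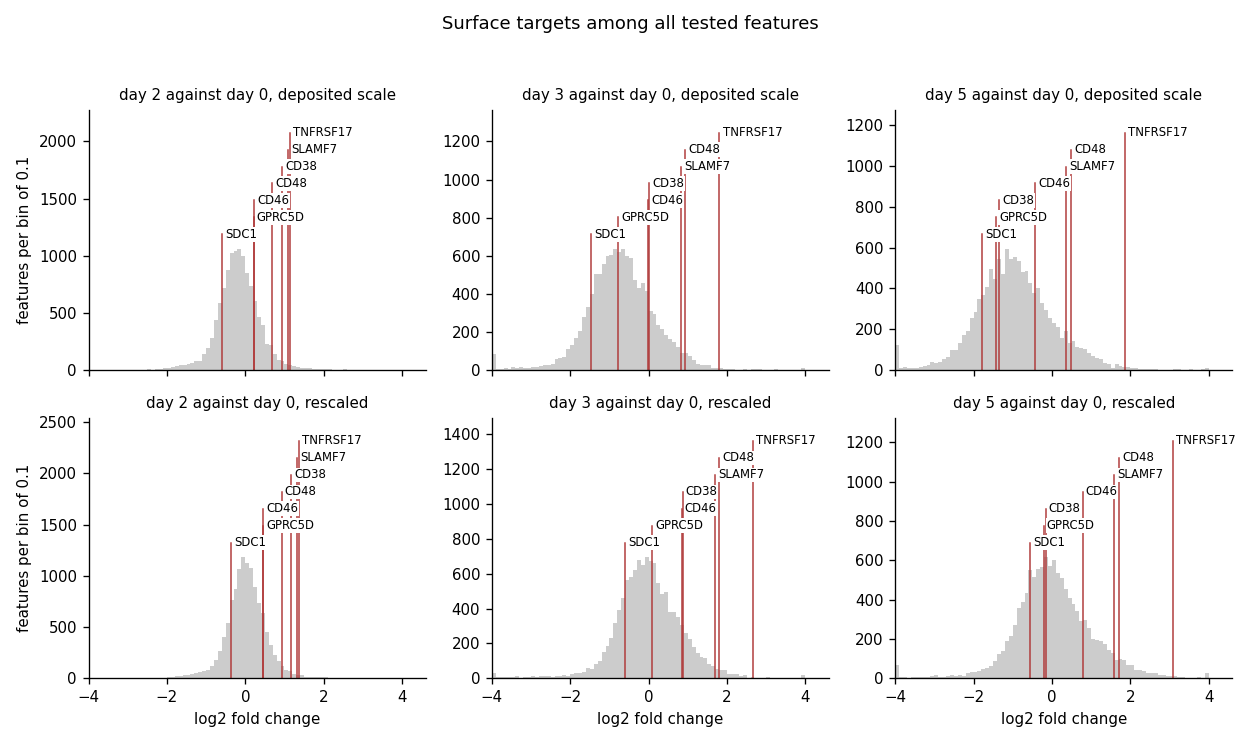
Histograms of the log2 fold change against day 0 of all 11939 tested features in bins of 0.1 (grey; features beyond 4 on either side are in the end bins), with the 7 surface targets as red lines whose heights serve only to place the names; upper row deposited scale, lower row rescaled. The bulk of features moves left of 0 from day 2 to day 5 in the upper row and stays centred in the lower row, and TNFRSF17 is in the right tail of every panel.

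The features whose pattern was most like that of TNFRSF17 were found by the root mean square difference over the 12 libraries, in log2(TPM + 1) centred on each feature's mean, among the 5433 tested features whose mean TPM was 10 or more. The nearest were B2M (0.11), HSD17B11 (0.14), LINC01807 (0.14), TRAF3IP3 (0.15) and LINC01229 (0.19). LINC01807 and LINC01229 had day 0 means of 6.285 and 4.028 TPM, so they reached a mean TPM of 10 only through treated libraries. B2M, the light chain of MHC class I, went from a mean of 2054 TPM at day 0 to 4005, 6996 and 7971 TPM on the 3 treated days. TRAF3IP3, whose product binds the adaptor TRAF3, went from 11.9 TPM to 21.5, 38.7 and 43.2 TPM. Among the other surface targets CD48 stood closest, at 0.51, and SDC1 farthest, at 1.45. These distances describe 12 libraries in 4 groups and carry no test.

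Most other antigens of myeloma cells that were tested were lower by day 5 on the deposited scale. Of 23 listed, 18 were tested. On day 2 there were 5 higher and 2 lower, against 8.03% and 23.2% of all features. On day 3 there were 2 higher and 13 lower, against 7.59% and 61.5%. On day 5 there were 2 higher and 15 lower, against 7.73% and 69.8%. The median at day 5 was -1.15 against -0.99 over all tested features. CD70, a ligand of the TNF family, had the largest rise at day 5, by 1.17 in log2(TPM + 1), from a mean of 0.372 TPM to 2.14 TPM. CD74, the invariant chain of MHC class II, was the other gene that was higher at days 3 and 5. Its mean was 0.152 TPM at day 0, 0.819 at day 3 and 0.712 TPM at day 5. Both genes were under 1 TPM in every day 0 library and passed the filter only through treated libraries. They were also among the 5 higher on day 2. TNFRSF8, among the lower on every treated day, was under 1 TPM in every treated library and passed only through day 0. The calls of CD70, CD74 and TNFRSF8 thus rest on low values. After rescaling CD70 and CD74 were higher by 1.76 and 0.94 at day 5. TFRC, the transferrin receptor, fell the most, by 2.92 at day 5, and was also lower after rescaling, at -1.71. ITGB7, an integrin subunit, had a course like that of CD38, with 0.56 at day 2 and -1.68 at day 5, both called on the deposited scale and the second at -0.46 and not called after rescaling. After rescaling 4 genes of this list were higher and 4 lower at day 5, of the 18 tested, against 27.5% and 26.9% of all features.

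The cells bore the markers of their label. All 8 further plasma cell markers were expressed, with summed levels of 13660 to 15770 TPM at day 0 and 19420 to 21050 TPM at day 5, most of it JCHAIN, with means of 9697 and 17340 TPM. JCHAIN, the joining chain of secreted antibodies, was the only one called higher at day 5, by 0.84, while 5 were lower, where 69.8% of all features were lower. The largest fall was in the transcription factor XBP1, by 2.09. After rescaling 4 of the 8 were higher and 1 lower, against 27.5% and 26.9% of all features, with JCHAIN at 2.07 and XBP1 at -0.87. Summed levels of the 6 B cell markers were 1.92 to 2.72 TPM at day 0, 5.16 to 6.41 at day 2, 3.26 to 3.63 at day 3 and 2.10 to 4.80 TPM at day 5, of which nearly all was BACH2, with CD22 at 0. The 6 T and NK cell markers summed to 2.80 to 3.36 TPM at day 0, 5.12 to 7.17 at day 2, 4.99 to 7.23 at day 3 and 3.52 to 4.75 TPM at day 5, nearly all CD3E, with CD3D at 0. The 6 myeloid markers summed to at most 0.745 TPM and the 6 stromal markers to at most 0.448 TPM in any library. The part of these sums in the levels of the surface targets was not tested.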

How the data were processed

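The authors deposited 1 table of log2(TPM + 1) values for 12 libraries, listed by gene symbol. The submitters' processing notes name FastQC, Trimmomatic, STAR, Salmon and hg38, with no versions. Per the labels, 200 ng of RNA went into a library and over 60 M read pairs came out. TPM keeps no counts, so precision is read from the spread between 3 libraries and no counting interval is given.

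The 11939 features that reached 1 TPM in 3 or more libraries were fitted in limma 3.58.1 (R 4.3.3), as 1 mean per group with a mean-variance trend. P-values were two-sided, with Benjamini-Hochberg adjustment over all tested features separately for every contrast. The contrast of day 5 against day 2 was added after the data were seen. The fit was tested on simulated data. Ratios were compared by exact permutation. Gene positions came from GENCODE release 29 on GRCh38.

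The members and gene lists were chosen with earlier results of these data known. Named genes are the 9 members, the largest rise and fall called at day 5 in each list, any relatives needed for small counts, and the 5 features nearest to TNFRSF17. GPRC5C and the genes compared beside these (LY9, ITGB7, ADAM10, ADAM17 and the remaining list genes with values) were named after their values were seen. Alternatives were other filters, pseudocount, scalings, thresholds, pairwise fits, no trend and leaving out each library. Some results that the naming rule would give are not reported here.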

Additional observations from a re-analysis of the deposited data

Results flagged for a closer look

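CD38 had effects of opposite direction on different days of NGI-1, and the difference between these effects was itself tested. On the deposited scale it was called higher than day 0 at day 2, by 0.94, and lower at day 5, at -1.34. The effect at day 5 minus that at day 2 was -2.28 (limma, Benjamini-Hochberg adjusted p = 1.1e-08), with the 3 libraries of day 5 all below the 3 of day 2. After rescaling this difference was -1.32 and still called, while the level at day 5 was not called against day 0. Since both effects are taken against the same day 0 libraries, the difference is the contrast of day 5 with day 2. It follows from the calls that led to the flag and gives no independent support for them. This contrast was added after the data were seen. Over all tested features its median was -0.83 on the deposited scale, where CD38 stood at percentile 1.21, and -0.07 after rescaling.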

How the results depend on the processing

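Over 770 values of single genes under the alternatives, 709 kept their direction and their side of the threshold, 22 lost a call, 23 gained one and 16 changed sign. TNFRSF17 was called higher on all 3 days against day 0 under every alternative tried. With rescaling, the members lower at day 2 were 0 in place of 1. At day 3, 5 were higher in place of 3 and 1 lower in place of 2, and at day 5, 4 higher in place of 1 and 1 lower in place of 3. From day 2 to day 3, 2 were higher in place of 1 and 0 lower in place of 3, and from day 3 to day 5, 1 was lower in place of 2. Without ribosomal protein and mitochondrial features, 0 were lower at day 2, 1 lower at day 3, 3 higher at day 5, 2 higher from day 2 to day 3 and 1 lower from day 3 to day 5. Without the 20 most abundant features, 0 were lower at day 2 and 3 higher at day 5. With a fold threshold of 1, 2 were higher and 0 lower at day 2, 1 higher and 1 lower at day 3, 0 higher and 0 lower from day 2 to day 3, and 1 lower from day 3 to day 5. With no fold threshold, 3 were higher and 4 lower at day 5, 2 higher and 5 lower from day 2 to day 3, and 6 lower from day 3 to day 5. These thresholds change counts by their construction, and for the scalings the cause was not tested. Shares of all features are given only for the deposited scale and for rescaled contrasts against day 0. The other counts here therefore describe only how the calls move with the settings.

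Signs changed as follows. With rescaling, SLAMF7 from day 2 to day 3 was 0.36, GPRC5D at day 3 0.084, SDC1 from day 3 to day 5 0.046, and CD46 0.84 at day 3, 0.78 at day 5 and 0.39 from day 2 to day 3. Without ribosomal protein and mitochondrial features, SLAMF7 from day 2 to day 3 was 0.049, and CD46 was 0.46 at day 3, 0.29 at day 5 and 0.083 from day 2 to day 3. Without the 20 most abundant features CD46 was 0.24 at day 3.

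With each library left out in turn, the members higher at day 5 were 1 to 2, the second being CD48 without H3 or without H12. The change of TNFRSF17 from day 3 to day 5 ran from -0.015 to 0.10, and at day 3 CD38 ran from -0.096 to 0.10 and CD46 from -0.048 to 0.050. SLAMF7 was called lower from day 3 to day 5 without H9 (-0.52) or H12 (-0.57). The TNFRSF17 ratios under an adjusted exact permutation p of 0.05 were 4 to 6 of 6, with 6 without H5 or without H6 of day 2. On the rescaled values, where leaving out each library was added after the data were seen, 5 calls appeared and none was lost: GPRC5D at day 2 without H1 (0.53) or H4 (0.51), CD46 at day 2 without H2 (0.51), and TNFRSF17 from day 3 to day 5 without H9 (0.51) or H12 (0.52). The rescaled change of CD48 from day 3 to day 5 became 0.034 without H12. No paired analysis was possible because the labels carry no replicate numbers, and the numbers used here only name the libraries of a group in accession order.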
